A study of Homo sapiens with 18 samples.

Results

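The genes described here are 9 targets of the transcription factor NRF2 (gene NFE2L2), namely GCLC, GCLM, TXNRD1, SRXN1, NQO1, HMOX1, FTH1, AKR1C1 and AKR1B10, in bladder cancer cells with and without knockdown of ACAT1, a mitochondrial thiolase. They were chosen by name, and all 9 were found among the 39496 genes of the count and RPKM tables. RPKM is the number of reads counted on a gene, scaled to its exon length and to all reads counted in the library. The length is that of all annotated exons, from 1744 bases for AKR1B10 to 8765 for AKR1C1 among the members. An order of genes by RPKM therefore depends in part on the annotation. UM-UC-3 and T24 are established human bladder cancer cell lines. Each line received the control siRNA siNC, or siACAT1-1, or siACAT1-2, the latter both aimed at ACAT1, which gave 6 groups of 3 libraries and 18 libraries of total messenger RNA. The labels call the libraries biological replicates and the cells wild type apart from the siRNA. T24 cells were grown in RPMI-1640 and UM-UC-3 cells in MEM, so medium and cell line cannot be told apart. No group was left untransfected, and each line stands for 1 tumor only.

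NRF2 is held at low levels by KEAP1, which hands it to a CUL3 ubiquitin ligase. Oxidants and electrophiles modify KEAP1, after which NRF2 enters the nucleus, pairs with a small MAF protein and binds antioxidant response elements. Its targets make glutathione, reduce thioredoxin and peroxiredoxins, supply NADPH, detoxify quinones and carbonyls, and handle heme and iron. Several of them also answer to other factors, HMOX1 to BACH1 among them.

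The antioxidant response element has the core TGACNNNGC. This core was searched on both strands in the 1000 bases before the start sites that RefSeq gives for the members on GRCh38, because NRF2 binds elements with this core. The members were chosen by name and not by these letters. Of the 9 members, 6 were matched to a start site, and HMOX1, AKR1B10 and FTH1 were not analysed here. The core was present before 31.9% of the 35116 start sites scanned, so a match is a description of the sequence and not a site of binding. The matches are printed with 10 bases on each side and the core in capitals.
NQO1, chr16:69726997-69727025, minus strand, 446 bases before the start: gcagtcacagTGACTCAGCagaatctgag
GCLM, chr1:93909446-93909474, plus strand, 25 bases before the start: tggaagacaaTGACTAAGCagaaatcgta
GCLC, chr6:53545953-53545981, plus strand, 861 bases before the start: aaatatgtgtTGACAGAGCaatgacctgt
TXNRD1, chr12:104215670-104215698, plus strand, 90 bases before the upstream start: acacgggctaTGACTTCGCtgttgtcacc
TXNRD1, chr12:104286920-104286948, minus strand, 93 bases before the downstream start: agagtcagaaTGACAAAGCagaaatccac
Only the NQO1 match and the upstream TXNRD1 match lay on the strand of their gene. The windows of SRXN1 and AKR1C1 held no match to these letters.

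The members lie on 9 chromosomes of GRCh38. HMOX1 is at chr22:35380361-35394214 on the plus strand, NQO1 at chr16:69706996-69726951 on the minus strand, GCLM at chr1:93885205-93909456 on the minus strand and GCLC at chr6:53497341-53616970 on the minus strand. TXNRD1 is at chr12:104215779-104350305 on the plus strand, SRXN1 at chr20:646615-653370 on the minus strand and AKR1C1 at chr10:4963253-4983283 on the plus strand. AKR1B10 is at chr7:134527592-134541408 on the plus strand and FTH1 at chr11:61959718-61967660 on the minus strand. The counts are those of all exons of a gene, UTRs included. Annotated neighbours share exon bases with some members. BEST1 on the other strand covers 62.4% of the FTH1 exon bases and its count was 83.4% to 88.0% of the FTH1 count, while a clone-named gene on the same strand covers 85.0% of SRXN1 and its count was 93.6% to 96.7% of the SRXN1 count. Reads of these genes and their neighbours cannot be told apart.

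The libraries held between 25163490 and 34417230 counted reads. ACAT1 was between 92.0% and 95.3% below siNC in the 4 knockdown groups, by mean RPKM. The epithelial keratins KRT8 and KRT18 were present in all libraries. KRT7, KRT19 and EPCAM were low in UM-UC-3 cells, and the urothelial genes GATA3, UPK1B and UPK2 were at or near 0 in both lines. Of the leukocyte and endothelial markers, PTPRC, CD3E, PECAM1 and VWF were at or near 0 and CD68 was present. The T24 libraries with replicate number 2 stood apart in all 3 groups, with CD68 at 121 to 169 RPKM against 15.7 to 41.5 RPKM in the other T24 libraries. Libraries that share a replicate number within a cell line deviated together from their group means, so each result below is given from the model without the number and, where the call differs, from the model with the number as a block. A gene is called at an adjusted p under 0.05 in the edgeR quasi-likelihood test across all 20144 genes that passed the filter on low counts. All 9 members passed it, AKR1B10 through its level in UM-UC-3 cells and AKR1C1 through its level in T24 cells.

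In the control cells, FTH1, NQO1 and TXNRD1 were called lower in UM-UC-3 than in T24, while GCLC, GCLM, SRXN1 and HMOX1 were not called. AKR1C1 and AKR1B10 passed the filter through 1 line only, so their difference between the lines is given as levels, with no test. Of all genes, 44.3% were called between the 2 lines, 22.3% lower and 22.0% higher in UM-UC-3, so 3 of 7 members is near that background. Every UM-UC-3 library lay below every T24 library for 5 of these 7, where 27.3% of all genes did. AKR1C1 also lay below and AKR1B10 above in every library, and 25.9% of all genes lay above. In bulk libraries, fewer cells expressing a gene and less RNA per cell cannot be told apart.

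Glutathione is made in a rate-limiting step by glutamate-cysteine ligase, of which GCLC is the catalytic and GCLM the modifier subunit. GCLC was at 1.34, 0.950 and 1.40 RPKM in UM-UC-3 siNC (replicates 1, 2 and 3) and at 1.23, 1.74 and 1.85 RPKM in T24 siNC. The 2 ranges overlapped, with a log2 difference of -0.33 ± 0.27 (SE, UM-UC-3 minus T24, edgeR adjusted p = 0.335). GCLM was at 3.76, 4.32 and 2.79 RPKM in UM-UC-3 siNC and at 5.31, 4.66 and 5.32 RPKM in T24 siNC. Its UM-UC-3 libraries all lay below those of T24, but the log2 difference of -0.45 ± 0.25 was not called (edgeR adjusted p = 0.159).

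TXNRD1, the cytosolic reductase that keeps thioredoxin reduced, was at 131, 121 and 101 RPKM in UM-UC-3 siNC and at 243, 215 and 279 RPKM in T24 siNC. The lowest T24 library lay well above the highest UM-UC-3 library, and the level was 2.03-fold lower in UM-UC-3 (log2 difference -1.02 ± 0.17, edgeR adjusted p = 0.000142). SRXN1, sulfiredoxin, returns overoxidized peroxiredoxins to the active form. It was at 12.9, 16.8 and 14.3 RPKM in UM-UC-3 siNC and at 20.1, 18.6 and 22.0 RPKM in T24 siNC, and its log2 difference of -0.42 ± 0.29 was not called although the groups did not overlap (edgeR adjusted p = 0.252).

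NQO1 reduces quinones by a pair of electrons at once and is among the most used readouts of NRF2. It was at 22.2, 25.5 and 28 RPKM in UM-UC-3 siNC and at 84.7, 49.0 and 102 RPKM in T24 siNC. All T24 libraries were higher, the library with replicate number 2 least so, and the log2 difference was -1.60 ± 0.40 (edgeR adjusted p = 0.00365). HMOX1 opens the heme ring and FTH1 is the ferroxidase subunit of the ferritin that stores the iron set free. HMOX1 spread widely within each line, from 3.99 to 11.6 RPKM in UM-UC-3 siNC and from 9.52 to 32.3 RPKM in T24 siNC, and was not called (log2 difference -1.34 ± 0.65, edgeR adjusted p = 0.106). HMOX1 was called without replicate 2 of T24 siACAT1-1 in the model (log2 difference -1.37, edgeR adjusted p = 0.0478) and without a filter on low counts (adjusted p = 1.33e-07). Without the filter its standard error fell from 0.65 to 0.24 on the same libraries, so that p-value does not measure their spread. Leaving out single libraries moved the HMOX1 difference from -1.92 without UM-UC-3 siNC replicate 1 to -0.78 without T24 siNC replicate 2 (adjusted p = 0.384).

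FTH1 was at 114, 113 and 244 RPKM in UM-UC-3 siNC and at 373, 801 and 521 RPKM in T24 siNC. Its means were 157 ± 75.2 and 565 ± 218 RPKM (SD, n = 3), and it was 3.47-fold lower in UM-UC-3 (log2 difference -1.80 ± 0.31, edgeR adjusted p = 0.000166). In T24 siNC it was the most abundant member per length, without overlap with TXNRD1. In UM-UC-3 siNC its higher mean rested on replicate 3, and TXNRD1, with a mean of 117 ± 15.6 RPKM, was above FTH1 in the other 2 libraries. The order of the T24 siNC means went on with TXNRD1 at 246, NQO1 at 78.4, SRXN1 at 20.3, HMOX1 at 18.8, GCLM at 5.09 and GCLC and AKR1C1 each at 1.60 RPKM. Of these neighbours in the order, SRXN1 and HMOX1 overlapped, as did GCLC and AKR1C1.

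AKR1C1 and AKR1B10 are aldo-keto reductases that reduce ketosteroids, lipid aldehydes and retinal, and the 2 lines held them in opposite order. AKR1C1 was at 0.0485, 0.0498 and 0.0222 RPKM in UM-UC-3 siNC, from 6 to 14 reads a library, and at 1.56, 1.28 and 1.97 RPKM in T24 siNC, from 317 to 483 reads. Its level was 38.3-fold lower in UM-UC-3 (log2 difference -5.26 ± 0.69). AKR1B10 was at 1.79, 1.43 and 0.965 RPKM in UM-UC-3 siNC, from 52 to 88 reads, and had no read in any T24 siNC library. Read pairs were mostly counted as 2 reads, so the floor was set at 3 pairs, or 6 reads, in each T24 library. Against it the level was at least 12.1-fold higher in UM-UC-3, and the floor covers counting error only. AKR1C2, AKR1C3 and AKR1B15 are near-identical copies among which reads may be split.

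**Figure D1:**
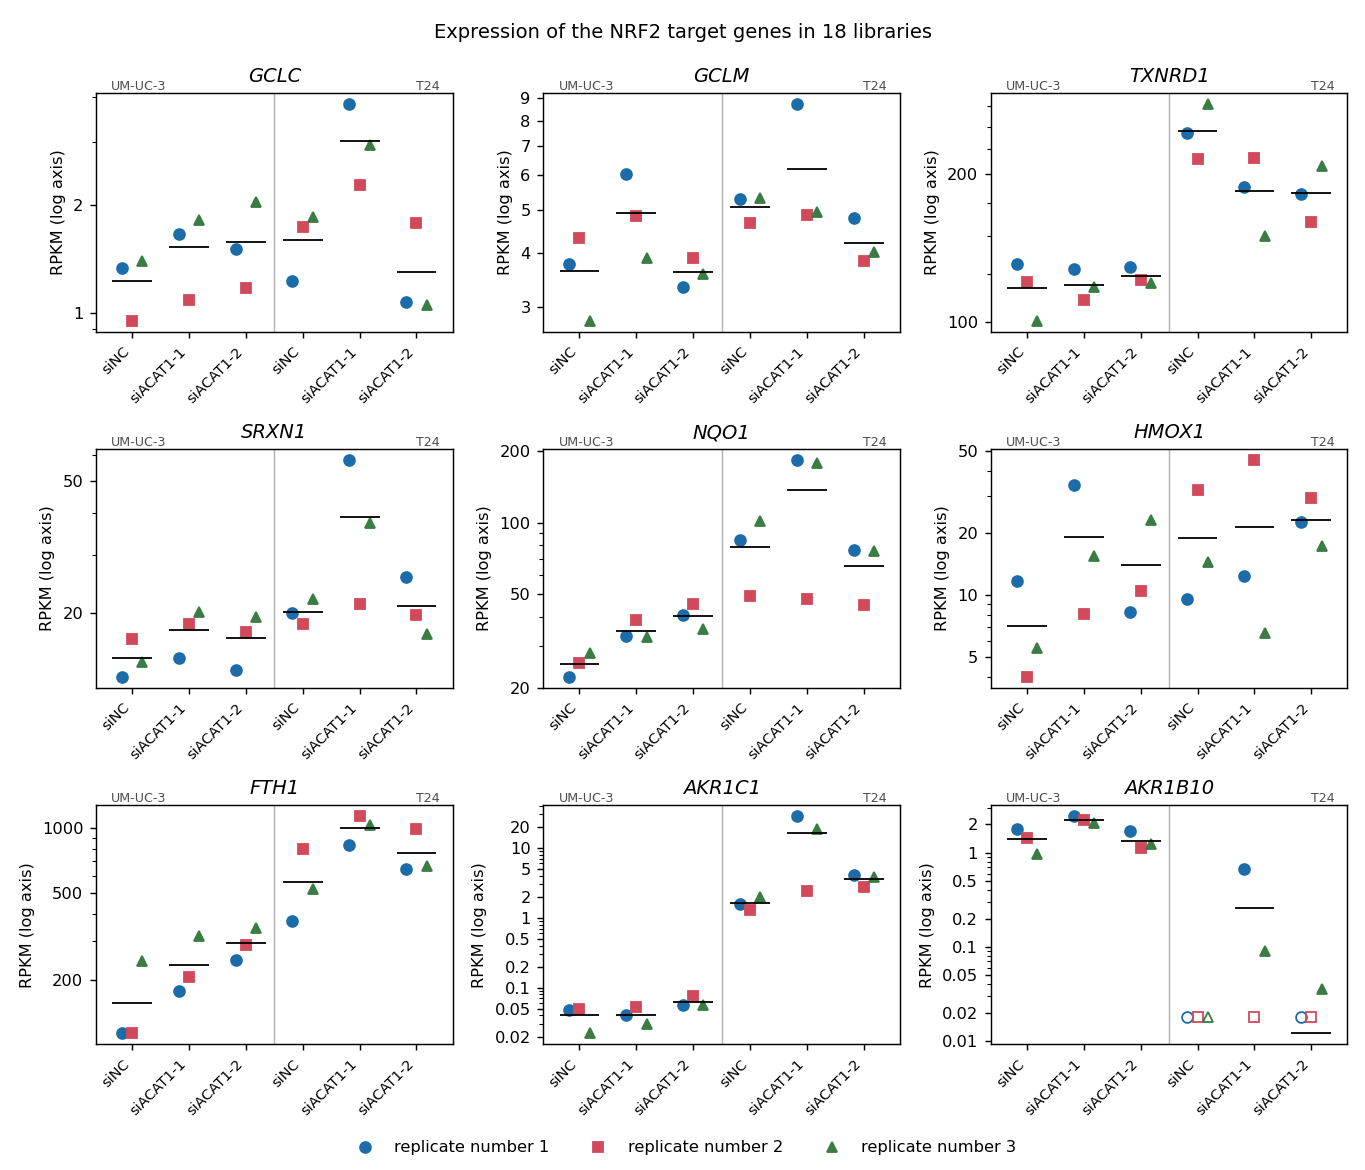
Level of each member in RPKM on a log axis, by group, for UM-UC-3 (left of the line) and T24 (right); each symbol is 1 library, its shape and color give the replicate number, and the bar is the mean of 3. Open symbols mark libraries without a read, drawn at an arbitrary low position. AKR1C1 is near the bottom in UM-UC-3 and AKR1B10 is without reads in T24 siNC, and the T24 libraries with number 2 are the highest for HMOX1 and FTH1 and the lowest for NQO1 in every T24 group.

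The genes around the members were looked at in 8 lists with 56 genes, of which 52 were tested. Between the siNC cells, 26 were called, 19 lower and 7 higher in UM-UC-3. Of all genes, 44.3% were called, 22.3% lower and 22.0% higher. The median log2 difference of the 52 was -0.56 against 0.03 over all tested genes. Of the 10 regulators, 5 were called lower and none higher in UM-UC-3, against the same 22.3% and 22.0% of all genes. NFE2L2 itself was at 5.02, 4.0 and 6.16 RPKM in UM-UC-3 siNC and at 7.22, 20.7 and 10.2 RPKM in T24 siNC (log2 difference -1.26 ± 0.37, edgeR adjusted p = 0.0112). KEAP1 was at 4.27, 4.86 and 4.11 RPKM against 7.17, 6.69 and 7.04 RPKM (log2 difference -0.61 ± 0.19, edgeR adjusted p = 0.0165). Both the factor and its inhibitor thus had more reads in T24, together with the small MAF partners MAFF (log2 difference -2.86) and MAFG (-1.59).

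In the other lists the direction was mixed. Of 11 further glutathione genes, the transferase GSTA4 (log2 difference 3.50), the glutathione hydrolase GGT1 (2.59) and the lipid peroxidase GPX4 (0.90) were higher in UM-UC-3, and the synthetase GSS (-0.87) and the membrane transferase MGST1 (-0.86) were lower. TXN, thioredoxin itself (-1.18), was lower, as was TALDO1 (-0.88), the transaldolase of the pentose phosphate pathway. Of 10 tested detoxification genes, 5 were called lower, led by AKR1C3 (-4.35), the carbonyl reductase CBR1 (-2.03) and UGDH (-1.77). AKR1C3 was low in T24 siNC already, so a difference of this size leaves it close to absent in UM-UC-3. Its p-value is therefore not read, although it is among the genes counted as called. The 3 called higher were the fatty acid hydroxylase CYP4F11 (3.62), the carboxylesterase CES1 (2.01) and AKR1B1 (0.35). The exporters ABCC4 (1.78) and ABCC1 (-1.0) were called in opposite directions. FTL, the light ferritin chain (-1.49), BLVRA (-0.52) and OSGIN1 (-2.49) were lower. All of these had edgeR adjusted p values under 0.05.

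Among 7 antioxidant genes taken for comparison, PRDX3 (log2 difference 1.15) was higher in UM-UC-3 and GPX1 (-1.77) and SOD2 (-1.49) were lower. PRDX2 was close to absent in UM-UC-3, so its difference is given as levels, with no test. PRDX2, a cytosolic peroxiredoxin and so a substrate of SRXN1, was at 0.0169, 0.0149 and 0.139 RPKM in UM-UC-3 siNC and at 12.2, 9.04 and 12.9 RPKM in T24 siNC. Its UM-UC-3 libraries stayed at or below 0.140 RPKM in all 3 groups.

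**Figure D2:**
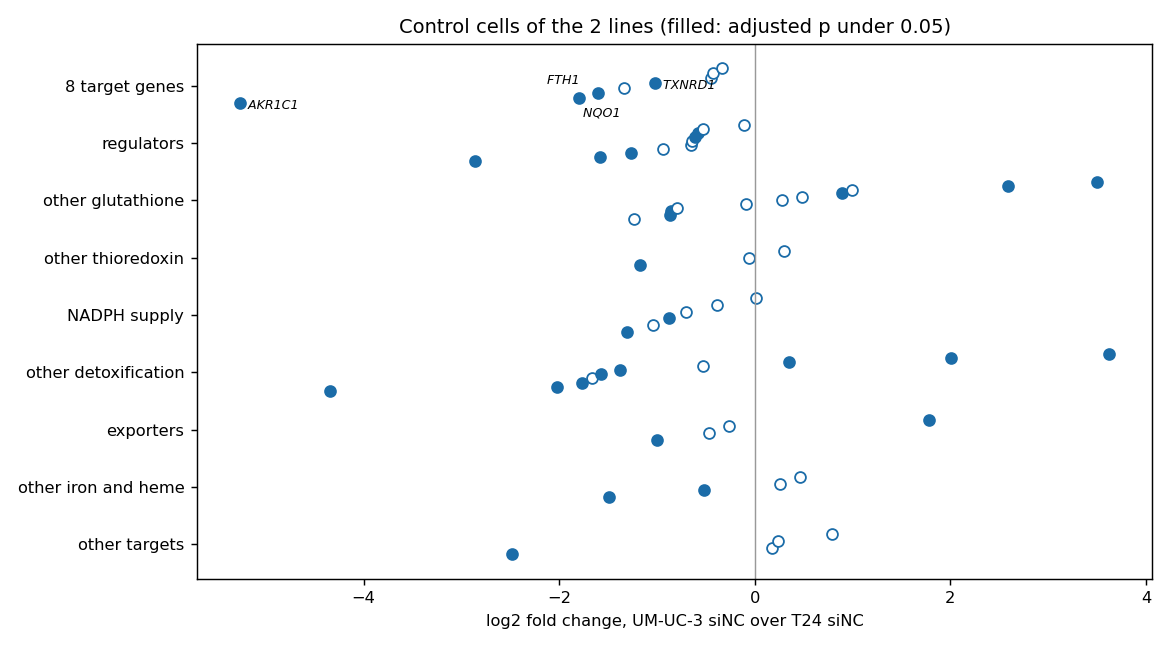
Log2 fold change of UM-UC-3 siNC over T24 siNC for 8 members and the genes of the 8 lists, 1 point a gene; filled points passed an edgeR adjusted p of 0.05. AKR1B10 is left out because it had no read in T24 siNC. All 8 members drawn lie left of 0, AKR1C1 farthest at -5.26. AKR1C1 passed the filter through T24 only, so its filled point is not counted as a call. The p-value of AKR1C3, close to absent in UM-UC-3, is likewise not read.

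With siACAT1-1 in T24 cells, AKR1C1 was the only member called in the model without the block. It rose from 1.56, 1.28 and 1.97 RPKM in siNC to 28.5, 2.41 and 18.7 RPKM, which is 10.6-fold (log2 fold change 3.40 ± 0.57, edgeR adjusted p = 0.0293). In this comparison 0.124% of all genes were called. With the replicate number as a block, 6 members were called higher and none lower, against 6.59% of all genes called higher and 7.31% lower.

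The rise of AKR1C1 was uneven. Every siACAT1-1 library lay above every siNC library, but replicates 1 and 3 had 6765 and 4133 reads and replicate 2 had 638. The log2 differences in CPM, the read count scaled to library size, between libraries of the same number were 4.15, 0.93 and 3.29. In the block model the log2 fold change was 3.03 (edgeR adjusted p = 7.17e-05). The call without the block was lost when T24 siNC replicate 1 (log2 fold change 3.42, edgeR adjusted p = 0.144) or 3 (3.54, adjusted p = 0.17), or T24 siACAT1-1 replicate 1 (2.72, adjusted p = 0.219) or 3 (3.31, adjusted p = 0.11), was left out. It was also lost without UM-UC-3 siACAT1-1 replicate 1 (3.39, edgeR adjusted p = 0.0512) or UM-UC-3 siACAT1-2 replicate 2 (3.40, adjusted p = 0.0511), libraries of the other line.

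Its neighbours in the gene family had a similar spread. AKR1C3 was at 0.840, 0.697 and 1.25 RPKM in T24 siNC and at 6.61, 0.929 and 5.57 RPKM with siACAT1-1 (log2 fold change 2.26, edgeR adjusted p = 0.11, and 1.96, adjusted p = 0.000345, with the block). AKR1C2 was at 0.0360, 0.0329 and 0.0221 RPKM in siNC and at 0.669, 0.0616 and 0.443 RPKM with siACAT1-1. It was close to absent in siNC, so its difference is given as levels, with no test. AKR1B10 had no read in T24 siNC and 32, 0 and 4 reads in replicates 1, 2 and 3 of siACAT1-1. Only replicate 1 stood above the floor of 6 reads, so no fold is given. The call depended on the block (edgeR adjusted p = 0.13 without it and 0.00117 with it), and without replicate 1 the adjusted p was 0.514 in the model with no block.

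The catalytic subunit GCLC was at 3.85, 2.28 and 2.95 RPKM with siACAT1-1 against 1.23, 1.74 and 1.85 RPKM in T24 siNC. No siACAT1-1 library reached down to the siNC range, and the log2 fold change was 0.94 ± 0.27 (edgeR adjusted p = 0.158, and 0.00384 with the block). GCLM was at 8.76, 4.88 and 4.96 RPKM with siACAT1-1 against 5.31, 4.66 and 5.32 RPKM, above its control in numbers 1 and 2, and was called in neither model (log2 fold change 0.30 ± 0.25, edgeR adjusted p = 0.709, and 0.289 with the block).

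SRXN1 was at 57.8, 21.3 and 37.4 RPKM with siACAT1-1 against 20.1, 18.6 and 22.0 RPKM in T24 siNC. Replicate 2 stayed within the siNC range, and the log2 fold change was 0.96 ± 0.29 (edgeR adjusted p = 0.19), or 0.86 with the block (adjusted p = 0.00275). TXNRD1 went the other way in 2 of 3 replicates, at 188, 216 and 150 RPKM against 243, 215 and 279 RPKM (log2 fold change -0.40 ± 0.17, edgeR adjusted p = 0.362, and 0.0536 with the block).

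NQO1 was at 184, 47.4 and 179 RPKM with siACAT1-1 against 84.7, 49.0 and 102 RPKM in T24 siNC. Replicates 1 and 3 were higher and replicate 2 was level with its control, so the log2 fold change of 0.82 ± 0.39 was not called (edgeR adjusted p = 0.435), while the block gave 0.67 (adjusted p = 0.0111). FTH1 was at 836, 1133 and 1027 RPKM against 373, 801 and 521 RPKM, above its control in each number and without overlap between the groups. Its log2 fold change was 0.85 ± 0.30 (edgeR adjusted p = 0.274), or 0.89 with the block (adjusted p = 0.000422). HMOX1 was at 12.4, 45.1 and 6.53 RPKM against 9.52, 32.3 and 14.5 RPKM, with replicate 3 below its control, and its log2 fold change was 0.20 ± 0.64 without the block and -0.02 with it (edgeR adjusted p = 0.957 and 0.992).

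AKR1C1, GCLC and FTH1 were the 3 members whose siACAT1-1 and siNC libraries did not overlap in T24, all higher, where 6.22% of all genes did so in that direction. Without T24 siACAT1-1 replicate 2, 5 members were called, where 2.18% of all genes were. These were AKR1C1, AKR1B10, NQO1 (log2 fold change 1.23, edgeR adjusted p = 0.035), GCLC (1.13, adjusted p = 0.0441) and SRXN1 (1.26, adjusted p = 0.0141). The AKR1B10 call rests on its few reads in T24. Without all 3 T24 libraries of number 2, the same 5 members were called, where 2.90% of all genes were. Beside these values, KRT19 and KRT7 were lower with siACAT1-1 in the block model (log2 fold change -1.14 and -0.68, edgeR adjusted p = 0.000224 and 0.00144). Of the 7 tested urothelial and epithelial markers, 3 were called lower in that model and all were below 0. The part of this difference in the members' values was not tested.

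**Figure D3:**
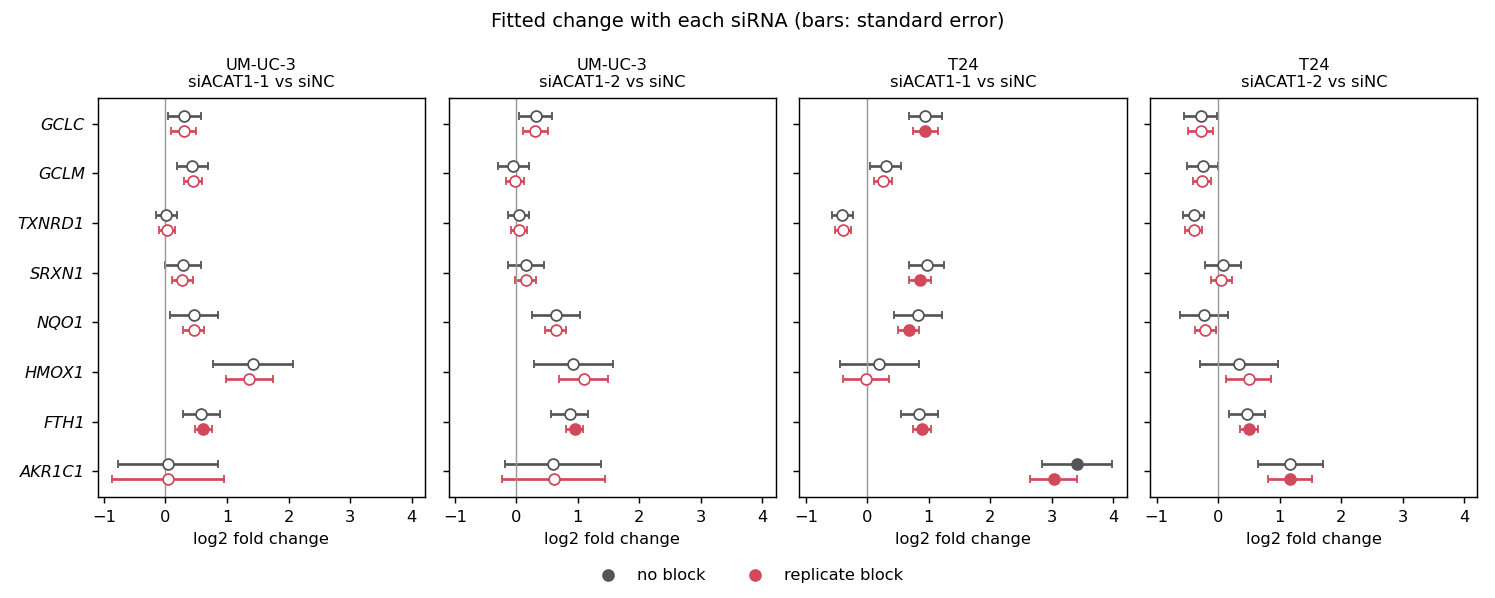
Fitted log2 fold change of 8 members with each siRNA against siNC, with the standard error as bars, for the model without (gray) and with (red) the replicate number as a block; filled points passed an edgeR adjusted p of 0.05. AKR1B10 is left out. AKR1C1 in T24 siACAT1-1 is the only filled gray point, at 3.40, and the FTH1 points of the block model are filled in all 4 panels.

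The genes around the members lay mostly above 0 with siACAT1-1 in T24. Of 52 tested genes in the 8 lists, 41 had a log2 fold change above 0 and the median was 0.37 against 0 over all genes, but none was called by edgeR without the block, 12 had an unadjusted p under 0.05, and DESeq2 called 3. With the block, 18 were called higher and 1 lower, where 6.59% and 7.31% of all genes were called. The 18 include AKR1C2, which was close to absent in T24 siNC. NFE2L2 (11.1, 21.9 and 11.7 RPKM) and KEAP1 (6.36, 5.54 and 5.16 RPKM) were called in neither model, here as in the other 3 comparisons with siNC.

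The genes called with the block belonged to most of the lists. Of the regulators, MAFG (log2 fold change 0.53), BACH1, the repressor of HMOX1 (0.55), and SQSTM1, which binds KEAP1 (0.73), were higher. Of the glutathione genes, the cystine importer subunit SLC7A11 (1.03), glutaredoxin GLRX (0.79) and glutathione reductase GSR (0.70) led. Of the NADPH genes, ME1 (0.86), PGD (0.78) and TALDO1 (0.63) were higher, and none of the 3 further thioredoxin genes or the 4 exporters was called. Besides AKR1C3, and AKR1C2 with its low siNC level, CYP4F11 (3.14) was higher and CBR3 (-1.07) was lower. FTL was higher (0.87), and so were all 4 tested genes of the last list, PIR (1.14), OSGIN1 (1.01), TRIM16L (0.89) and TRIM16 (0.68). Of the 7 antioxidant genes taken for comparison, SOD2 was called, with a log2 fold change of 1.57 (edgeR adjusted p = 5.77e-05 with the block and 0.366 without).

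With siACAT1-2 in T24 cells, no member was called by edgeR without the block (2 had an unadjusted p under 0.05, and DESeq2 called 0), where 0.268% of all genes were called. With the block, AKR1C1 and FTH1 were called higher, where 4.55% of all genes were. AKR1C1 was at 4.02, 2.80 and 3.83 RPKM, above every siNC library, as 5.68% of all genes were, and its log2 fold change was 1.17 ± 0.53 (edgeR adjusted p = 0.548, and 0.0452 with the block). FTH1 was at 649, 990 and 665 RPKM, above its control in each number, with a log2 fold change of 0.47 ± 0.30 (edgeR adjusted p = 0.743), or 0.50 with the block (adjusted p = 0.0287).

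NQO1, GCLC and SRXN1, called higher with siACAT1-1 in the block model, were not called with siACAT1-2 in either model. NQO1 was at 76.2, 44.9 and 76.0 RPKM, GCLC at 1.07, 1.79 and 1.06 RPKM and SRXN1 at 25.8, 19.8 and 17.4 RPKM, each overlapping T24 siNC. GCLM was at 4.79, 3.83 and 4.01 RPKM and HMOX1 at 22.5, 29.3 and 17.2 RPKM. TXNRD1 was at 183, 160 and 208 RPKM, below every siNC library, as were 6.26% of all genes, but was not called (log2 fold change -0.40 ± 0.17, edgeR adjusted p = 0.503, and 0.0649 with the block). AKR1B10 had 0, 0 and 2 reads, under the floor. Of the 52 genes in the 8 lists, none was called by edgeR without the block or by DESeq2 (5 had an unadjusted p under 0.05 in each), and 3 were called higher (AKR1B1, MAFK and NFE2L1) and 3 lower (UGDH and PTGR1 among them) with it, where 3.93% of all genes were called lower. CD68 was also higher with the block (log2 fold change 1.05, edgeR adjusted p = 0.000121), as was 1 of the 7 tested urothelial and epithelial markers. The part of these markers in the values above was not tested.

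The 2 siRNAs were compared directly within T24, a comparison added after the members' values had been seen, which uses no siNC library. GCLC was 2.34-fold lower with siACAT1-2 than with siACAT1-1 (log2 difference -1.23 ± 0.27, edgeR adjusted p = 0.0421), the only member called among the 0.968% of all genes called. All siACAT1-2 libraries lay below all siACAT1-1 libraries for GCLC and GCLM, where 7.04% of all genes did so. With the block, 6 members were called lower, where 6.83% of all genes were called lower. These were AKR1C1 (log2 difference -1.86, edgeR adjusted p = 0.00192), GCLC (-1.23, 0.000487), NQO1 (-0.88, 0.00173), SRXN1 (-0.81, 0.00368), GCLM (-0.51, 0.0241) and AKR1B10, which has few reads in T24. In the same model KRT7 (0.39, 0.0421), KRT8 (0.52, 0.00198), KRT18 (0.35, 0.03) and KRT19 (1.04, 0.000354), 4 of the 7 tested urothelial and epithelial markers, and CD68 (0.71, 0.00216), 1 of the 2 tested markers of other cells, were called higher with siACAT1-2. Their part in the members' values was not tested.

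The GCLC call without the block is close to the threshold. It was lost when any of 11 single libraries was left out, with log2 differences of -1.24 to -1.0. These were T24 siACAT1-1 replicates 1 (edgeR adjusted p = 0.223) and 3 (0.13), T24 siACAT1-2 replicates 1 (0.201) and 3 (0.182), T24 siNC replicates 1 and 3, UM-UC-3 siNC replicates 1 and 3, UM-UC-3 siACAT1-1 replicate 1 and UM-UC-3 siACAT1-2 replicates 1 and 2 (0.0513 to 0.0646 for the last 7). Without T24 siACAT1-1 replicate 2, 5 members were called, where 2.87% of all genes were. Over the 8 lists, 2 genes were called without the block, ME1 (log2 difference -1.21, edgeR adjusted p = 0.0295) and PTGR1 (-0.72, 0.0382), both lower with siACAT1-2, and 21 were called lower and 1 higher with it.

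**Figure D4:**
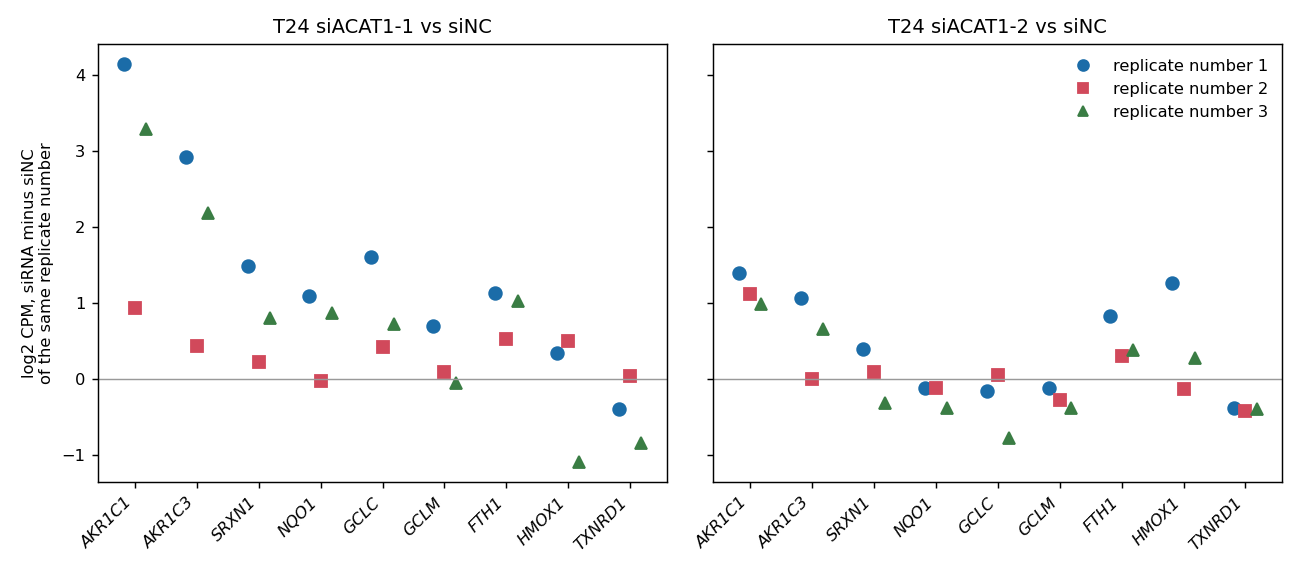
Log2 CPM of each siRNA library minus that of the siNC library with the same replicate number, in T24 cells, for 8 members and AKR1C3; symbols give the number. With siACAT1-1, AKR1C1 differs by 4.15, 0.93 and 3.29 and number 2 is the lowest for AKR1C1, AKR1C3, SRXN1, NQO1, GCLC and FTH1.

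In UM-UC-3 cells, no member was called with either siRNA by edgeR without the block or by DESeq2 (1 had an unadjusted p under 0.05 with each siRNA), where 0.00993% and 0.0546% of all genes were called. All 9 fitted log2 fold changes were above 0 with siACAT1-1 (median 0.44 against -0.01 over all genes) and 7 of 9 were with siACAT1-2. These 2 comparisons share the 3 siNC libraries. With the block, FTH1 was the only member called, where 1.96% and 0.635% of all genes were called higher.

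FTH1 was at 177, 206 and 317 RPKM with siACAT1-1 and at 247, 288 and 345 RPKM with siACAT1-2, against 114, 113 and 244 RPKM in UM-UC-3 siNC. It was higher than the control of the same number in each case, and the siACAT1-2 libraries all lay above those of siNC. The log2 fold changes with the block were 0.61 with siACAT1-1 and 0.95 with siACAT1-2 (edgeR adjusted p = 0.0236 and 0.00109), and 0.58 ± 0.30 and 0.87 ± 0.30 without it (adjusted p = 0.946 and 1). FTL, the partner chain, was at 51.0, 40.6 and 77.6 RPKM in siNC, at 82.7, 90.8 and 113 RPKM with siACAT1-1 and at 94.8, 101 and 110 RPKM with siACAT1-2, and was called with the block in both (edgeR adjusted p = 0.0122 and 0.00738).

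NQO1 was at 33.0, 38.5 and 32.8 RPKM with siACAT1-1 and at 40.5, 45.1 and 35.6 RPKM with siACAT1-2, above all 3 siNC libraries in both. Its log2 fold changes were 0.46 ± 0.39 and 0.64 ± 0.39 (edgeR adjusted p = 0.98 and 1), and with the block the second had an adjusted p = 0.0655. HMOX1 was at 33.9, 8.07 and 15.4 RPKM with siACAT1-1, higher than its control in each number, and at 8.27, 10.4 and 22.9 RPKM with siACAT1-2, lower in number 1. Its log2 fold changes were 1.42 ± 0.65 and 0.92 ± 0.65 (edgeR adjusted p = 0.933 and 1). With the block, HMOX1 with siACAT1-1 had an edgeR adjusted p = 0.056. Without single libraries its log2 fold change with siACAT1-1 ran from 0.76 (without siACAT1-1 replicate 1) to 2.00 (without siNC replicate 1), and with siACAT1-2 from 0.41 (without siACAT1-2 replicate 3) to 1.50 (without siNC replicate 1). Without the libraries of UM-UC-3 number 3 and T24 number 2 the latter was 0.26.

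The remaining members were called in neither model in UM-UC-3. GCLC was at 1.66, 1.09 and 1.82 RPKM with siACAT1-1 and at 1.51, 1.17 and 2.04 RPKM with siACAT1-2, with log2 fold changes of 0.31 in both. GCLM was at 6.05, 4.85 and 3.88 RPKM and at 3.34, 3.89 and 3.58 RPKM, SRXN1 at 14.7, 18.6 and 20.2 RPKM and at 13.5, 17.6 and 19.5 RPKM, and TXNRD1 at 128, 111 and 118 RPKM and at 130, 122 and 120 RPKM. The 95% intervals of the TXNRD1 log2 fold change were -0.36 to 0.38 and -0.33 to 0.41. AKR1B10 was at 2.46, 2.22 and 2.08 RPKM with siACAT1-1, above all siNC libraries, and at 1.69, 1.12 and 1.23 RPKM with siACAT1-2. AKR1C1 stayed between 0.0306 and 0.0756 RPKM in the 6 knockdown libraries.

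By these ranges, 2 members (NQO1 and AKR1B10) lay wholly above siNC with siACAT1-1, as 5.84% of all genes did, and 3 (NQO1, FTH1 and AKR1C1) with siACAT1-2, as 7.40% did. AKR1C1 had only 14, 19 and 14 reads with siACAT1-2 against 12, 14 and 6 in siNC, so its separation rests on few reads. Of the 52 genes in the 8 lists, none was called by edgeR without the block or by DESeq2, and 2 had an unadjusted p under 0.05 in edgeR with each siRNA. With the block, MAFF (log2 fold change 1.43), OSGIN1 (1.37), SQSTM1 (0.90), FTL (0.78) and MAFG (0.58) were higher and AKR1B1 (-0.46) was lower with siACAT1-1, and FTL (0.85) and PIR (0.65) were higher with siACAT1-2. KRT8 and KRT18 were lower with both siRNAs in that model, with log2 fold changes between -0.48 and -0.44, and their part in these values was not tested.

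Averaged over the 4 comparisons, the members had log2 fold changes from -0.19 for TXNRD1 to 1.30 for AKR1C1, with AKR1B10 left out for its few reads in T24. For this mean edgeR called none of the 9 members without the block, where 0.223% of all genes were called. AKR1C1 and FTH1 had an unadjusted p under 0.05, and DESeq2 called these 2. With the block, 5 members were called higher, where 5.95% of all genes were. FTH1 had a log2 fold change of 0.74 ± 0.088 (edgeR adjusted p = 2.69e-05), HMOX1 0.73 ± 0.24 (adjusted p = 0.0475), NQO1 0.39 ± 0.10 (adjusted p = 0.018) and SRXN1 0.33 ± 0.11 (adjusted p = 0.0451), and AKR1B10 was called with its low T24 counts (adjusted p = 0.0447). FTH1 was the only member above its control of the same number in all 12 knockdown libraries. The 2 siRNAs of a line share its siNC libraries. The share of all genes above their control in all 12 is not given here. AKR1C1 with 1.21 ± 0.40 missed the threshold (edgeR adjusted p = 0.0524). In the same model KRT7 (-0.33), KRT8 (-0.19) and KRT18 (-0.31), 3 of the 7 tested urothelial and epithelial markers, were called lower, with all 7 below 0, and CD68 (0.51) was called higher. Their part in the members' values was not tested.

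Whether the lines differed in their response was tested as an interaction. The mean knockdown effect did not differ between UM-UC-3 and T24 for any member at an adjusted p under 0.05, with or without the block, where 0% and 0.104% of all genes were called. Without the block 1 member had an unadjusted p under 0.05, and DESeq2 called 0. For siACAT1-1 alone, a comparison added after the values were seen, the AKR1C1 effect differed by -3.37 ± 0.99 on the log2 scale (UM-UC-3 minus T24, edgeR adjusted p = 1, and 0.195 with the block, where 0.427% of all genes were called). Without T24 siACAT1-1 replicate 2 this difference was -3.87 (edgeR adjusted p = 0.0152, where 0.00482% of all genes were called), and without T24 siACAT1-1 replicate 1 it was -2.67 (adjusted p = 1). AKR1C1 had only 6 to 14 reads in a UM-UC-3 siNC library and 8 to 14 with siACAT1-1, and passed the filter through T24. No difference between the lines is therefore read from these p-values. Between the 2 siRNAs over both lines, edgeR called no member without the block, where 2.56% of all genes were called (4 had an unadjusted p under 0.05, and DESeq2 called GCLC and AKR1B10), and 5 (AKR1B10, GCLC, GCLM, SRXN1 and NQO1) were called lower with siACAT1-2 with it, where 10.2% of all genes were. Without T24 siACAT1-1 replicate 2, 4 members were called in that comparison without the block, where 4.34% of all genes were. These were AKR1C1, AKR1B10, GCLC (log2 difference -0.71, edgeR adjusted p = 0.0428) and SRXN1 (-0.66, 0.0343). GCLC was also called without T24 siACAT1-2 replicate 2 (-0.73, 0.0499). AKR1B10 has few reads in T24, so no difference is given for it and its calls between the siRNAs rest on low counts.

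For several members the replicate number took a larger share of the variance than the siRNA did. Within T24, the number took 64.0% of the variance of log2 CPM of HMOX1 and 66.4% of that of NQO1, and the siRNA took 8.88% and 23.2%. For GCLC it was the reverse in T24, with 0.0921% for the number and 76.1% for the siRNA, while in UM-UC-3 the number took 75.0% and the siRNA 20.6%. Over all tested genes the median shares were 44% for the number and 25.5% for the siRNA in T24, and 38.2% and 25.5% in UM-UC-3. ACAT1 varied almost wholly with the siRNA in both lines.

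**Figure D5:**
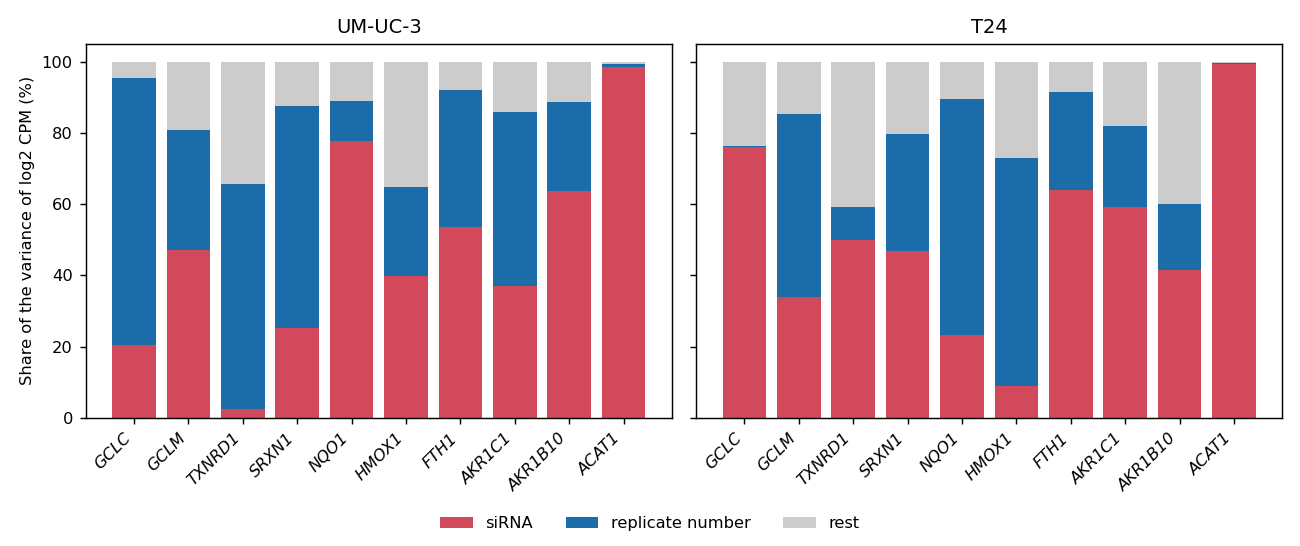
Share of the variance of log2 CPM over the 9 libraries of each cell line that falls to the siRNA, to the replicate number and to the rest, in percent, for the 9 members and ACAT1. In T24 the number has the largest share for HMOX1 (64.0%) and NQO1 (66.4%) and almost none for GCLC.

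In T24 the number 2 libraries were the highest of each group for HMOX1 and FTH1 and the lowest for NQO1. Across the 9 T24 libraries, which share these numbers and the siRNA groups, HMOX1 and NQO1 had a Pearson r of -0.855 and SRXN1 and AKR1C1 one of 0.910. Of the 36 pairs of members, 21 had an r above 0 in T24 and 27 in UM-UC-3.

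The 5 genes outside the members whose log2 CPM followed the members' mean most closely, after centring on each cell line, were HMGB1P3 (r = 0.893), JAKMIP3 (0.886), F2RL2 (0.865), the clone-named neighbour of SRXN1 (0.858) and MAPKBP1 (0.849), over 18 libraries. That neighbour shares most of its exon bases with SRXN1. By single member, FTL was close to FTH1 (r = 0.936, behind only the overlapping BEST1 at 0.999), ME1 was the closest to GCLC (0.889), and CTD-2033A16.1, which shares exon bases with NQO1 on the other strand, was the closest to NQO1 (0.978). These values describe libraries that share depth, number and siRNA.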

How the data were processed

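Per the labels, RNA was extracted with TRIzol and made into stranded libraries that carry unique molecular identifiers. The authors' notes name Trimmomatic 0.36 for read filtering and STAR 2.5.3 for mapping to GRCh38. Reads were counted by the authors on gene exons with featureCounts of Subread 1.5.1, and they deposited raw read counts and the RPKM values calculated from them. The strand setting, the treatment of reads with several positions and the use of the identifiers are not given in the sources used here. Of counts from 1 to 20, 73% were even, so read pairs were mostly counted as 2 reads. Libraries held 25163490 to 34417230 counted reads.

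Counts were tested with edgeR 4.0.16 in R 4.3.3 (filterByExpr, TMM, quasi-likelihood, Benjamini-Hochberg) in 1 model of 18 libraries and 6 groups. The model was also run on simulated counts without differences between cell lines or replicate numbers. That run does not show how it handles such differences. Levels are the deposited RPKM. The labels number the replicates without saying what a number marks, so p-values measure only the spread between these libraries. Deviations of libraries with the same number correlated in all 9 pairs of UM-UC-3 (r 0.115 to 0.576) and of T24 (0.356 to 0.686), genes being no independent replicates, and the pairing was taken from these values. The members, lists and tests were chosen with earlier results of these data known. Named are the members, ACAT1, NFE2L2 and KEAP1 and, of each list, up to 3 called genes in each direction with the largest changes, plus the 5 genes most like the members' mean. TRIM16 and the genes closest to single members were named after their values were seen, and 1 listed gene that the rule names is not reported here. Alternatives were RLE factors, library totals, no filter on low counts, DESeq2 1.42.0, only the groups compared, the replicate block, summed near-identical copies and left-out libraries. A further 3 comparisons were added after values were seen.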

Additional observations from a re-analysis of the deposited data

Results flagged for a closer look

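With the replicate number as a block, the siACAT1-1 effect was called unlike in UM-UC-3 and T24 for 4 of the members and listed genes. Differences are given as the first line minus the second. In this comparison 0.427% of all genes were called, and it was added after the values had been seen. The difference was -6.03 on the log2 scale for AKR1B10 (edgeR adjusted p = 0.0491), which had no read in T24 siNC and 32, 0 and 4 reads with siACAT1-1. This fitted value depends on the prior count and is no bound. AKR1B10 passed the filter through UM-UC-3 only, so no difference between the lines is read from its p-value. It was -1.19 for PGD (edgeR adjusted p = 0.00521), the phosphogluconate dehydrogenase that supplies NADPH, which was at 93.8, 51.5 and 106 RPKM in T24 siNC and at 207, 62.2 and 196 RPKM with siACAT1-1, against 50.1, 55.8 and 44.7 RPKM and 41.3, 43.4 and 30.4 RPKM in UM-UC-3. It was -0.85 for TALDO1 (edgeR adjusted p = 0.0339) and -1.71 for SOD2 (adjusted p = 0.00589), the mitochondrial superoxide dismutase. In the model without the block none of the 4 was called, where 0% of all genes were. The cause was not tested.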

How the results depend on the processing

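Of 68 single-gene results, 59 kept their direction under every alternative run. Counts of called members were 0 in UM-UC-3 siACAT1-1, UM-UC-3 siACAT1-2, T24 siACAT1-2, the mean of the 4, both interactions and the siRNA difference over both lines, and 1 in T24 siACAT1-1 and in the T24 siRNA difference. Without a filter on low counts they were 1, 2, 1, 4, 1 (mean effect), 2 (siACAT1-1 effect), 3, 6 and 5 in that order. HMOX1 was among them with siACAT1-1 and siACAT1-2 in UM-UC-3 (adjusted p = 2.41e-06 and 0.0427). Its log2 fold change with siACAT1-1 was 1.43 against 1.42 with the filter, but the standard error fell from 0.65 to 0.24. The HMOX1 libraries were the same, so these p-values do not measure their spread. With the replicate block they were 1 in UM-UC-3 with either siRNA, 2 in T24 siACAT1-2, 5 for the mean, 1 for the siACAT1-1 interaction, 5 over both lines, 6 in T24 siACAT1-1 and 6 in the T24 siRNA difference. DESeq2 gave 2 for the mean, 2 over both lines, 3 in T24 siACAT1-1 and 3 in the T24 siRNA difference. With only the groups compared, the latter 2 were 0 and 0 (AKR1C1 log2 fold change 3.41, adjusted p = 0.524), and with library totals the T24 siRNA difference had 0. Leaving out UM-UC-3 number 3 and T24 number 2 (6 libraries) gave 1 in UM-UC-3 siACAT1-2, 7 in T24 siACAT1-1, 1 in T24 siACAT1-2, 3 for the mean, 5 over both lines, 5 in the T24 siRNA difference and 1 for the siACAT1-1 interaction. Leaving out T24 number 2 alone, chosen after seeing the data, gave 5, 2 (mean), 5, 5 and 1 for T24 siACAT1-1, the mean, both lines, the T24 siRNA difference and the interaction. GCLC in the T24 siRNA difference had -1.21 with library totals (adjusted p = 0.0586) and -1.25 with only the groups compared (0.346). The cause was not tested. The share of all genes called moved too. In T24 siACAT1-1 it was 0.124% as reported, 1.17% without the filter, 13.9% with the block, 1.95% by DESeq2, 6.25% without the 6 libraries and 2.90% without the 3. In the same order it was 0.968%, 1.32%, 14.7%, 3.47%, 6.53% and 3.80% in the T24 siRNA difference, 0.223%, 0.970%, 12.4%, 1.56%, 2.56% and 2.13% for the mean, 2.56%, 2.24%, 20.6%, 6.44%, 8.43% and 6.85% over both lines, and 0.268%, 0.456%, 8.48%, 1.25%, 2.01% and 0.684% in T24 siACAT1-2. In UM-UC-3 siACAT1-1 and siACAT1-2 it was at most 3.06% and 1.36%, with the block, and for the 2 interactions at most 0.104% and 0.427%, likewise.

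Leaving out single libraries gave 0 to 5 called members in T24 siACAT1-1 and in the T24 siRNA difference, 0 to 1 for the mean and the siACAT1-1 interaction and 0 to 4 over both lines. The siNC comparison of the 2 lines could not be fitted with the block, since the numbers are nested in the lines. Directions turned for HMOX1 in T24 siACAT1-1 (-0.020 with the block, -0.34 without 6 or 3 libraries, -0.93 to 0.77 without single ones) and, without 6 libraries, for TXNRD1 (-0.072) and AKR1C1 (-0.074) in UM-UC-3 siACAT1-1 and TXNRD1 in UM-UC-3 siACAT1-2 (-0.0094). Without single libraries, the log2 fold changes in UM-UC-3 ran from -0.10 to 0.11 for TXNRD1 and -0.27 to 0.24 for AKR1C1 with siACAT1-1, and from -0.078 to 0.13 for TXNRD1, -0.31 to 0.13 for AKR1B10 and -0.22 to 0.11 for GCLM with siACAT1-2. In T24 they ran from -0.083 to 0.46 for GCLM with siACAT1-1, and from -0.16 to 0.19 for SRXN1 and 0 to 3.13 for AKR1B10 with siACAT1-2. The low counts of AKR1C1 in UM-UC-3 and AKR1B10 in T24 limit those values.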
